A study of Mus musculus with 8 samples.

Results

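Cebpb encodes C/EBPβ, a basic leucine zipper transcription factor. The 6 peak lists of tyrosine-phosphorylated STAT3 held 5343 distinct sites with exact positions. Of these, 11 were found at this gene and in the stretch of chromosome 2 downstream of it. The 11 sites hold all peaks that overlapped a window of 220 kb on mm9. The window begins 34.1 kb before the first of them and ends 7.33 kb after the last. In it the gene lies near 167.514 to 167.516 Mb. The gene's place is the approximate one that came with the definition of the window, and it was not checked against an annotation of that build. The window was selected on the peak positions in these same 6 lists, which showed many peaks there. The number of sites, their spacing and the lists that hold them are therefore descriptions, and no test was made of them.

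Chromatin immunoprecipitation and sequencing (ChIP-seq) was done on mouse embryonic fibroblasts with an antibody against STAT3 phosphorylated on its activating tyrosine. All fibroblasts were STAT3-/- and re-expressed either STAT3α or STAT3β, the latter a shorter spliceform without the C-terminal transactivation domain, from a construct that 1 nM 4-hydroxytamoxifen switched on over 48 h or longer. After 16 h without serum, each line received human recombinant oncostatin M at 10 ng/mL for 0, 30 or 180 min. Each spliceform and time is represented by 1 list, each spliceform by 1 line, and reads of a sample had been merged, so there is no error across replicates. The line and the spliceform cannot be told apart. The re-expressed proteins come from a construct and not from the gene's own promoter.

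The lists held 9, 3725 and 40 peaks for STAT3α at 0, 30 and 180 min, and 12, 3891 and 120 for STAT3β. The 0 min lists include 2 (STAT3α) and 4 (STAT3β) peaks whose positions are given only rounded. These are not among the 5343 distinct sites. They hold no peak height and no read number, so sites could not be ranked by strength, and the sequencing depth is unknown. A site that is missing from a list is not thereby shown to be unbound.

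Oncostatin M belongs to the interleukin-6 family of cytokines. Its receptors activate JAK kinases, which phosphorylate STAT3, and phosphorylated STAT3 dimers bind DNA at palindromic elements. C/EBPβ was found early as a nuclear factor of interleukin-6 signalling, for which NF-IL6 is an older name, and it takes part in the acute-phase response, in macrophages and in the onset of fat cell differentiation. Its messenger RNA is translated from several start codons into longer activating forms and a short form that lacks the activation domains. RNA was not measured in these samples, so the lists say where phosphorylated STAT3 was listed and nothing of the level of Cebpb.

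One site lay at the gene itself, and its promoter is shown because that site overlaps the approximate position of the gene's start. The RefSeq sequence covers 250 bases before and 50 bases after the start of transcription. It is on the plus strand of GRCm38.p6, at chr2:167688665-167688964. That build numbers positions differently from mm9, so these coordinates cannot be set against those of the sites, and how far the listed peak covers these bases was not determined. Capitals mark the core TGACG of the cAMP response element, the site of CREB and ATF factors, on either strand.
Cebpb promoter: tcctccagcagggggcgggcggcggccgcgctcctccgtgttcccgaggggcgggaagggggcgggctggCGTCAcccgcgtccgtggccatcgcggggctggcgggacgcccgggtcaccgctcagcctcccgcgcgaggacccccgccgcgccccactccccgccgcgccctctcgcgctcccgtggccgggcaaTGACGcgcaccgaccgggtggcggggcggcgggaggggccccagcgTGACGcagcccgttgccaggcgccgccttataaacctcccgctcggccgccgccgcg

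The STAT element TTCNNNGAA, searched on both strands, was not among these 300 bases. It was present in 2726 of 32851 RefSeq promoters of the same length (8.3%). The form with a shorter spacer, TTCNNGAA, was also not in the Cebpb promoter, and 8.52% of all promoters held it. The C/EBP element TTGCNNAA was not present either, against 10.8% of all promoters. The core TGACG occurred 3 times, at bases 71, 198 and 244 counted from the 5′ end of the printed sequence, and 20.8% of all promoters held at least 1 copy. The 3 matches do not overlap each other. The share of promoters with as many copies was not counted. G and C made up 80.7% of the Cebpb promoter, where the median of all promoters was 52.7% and 99.2% of them had no higher value. The shares of promoters with each element were not adjusted for base composition. A match of letters is a description of the sequence and does not show binding. The TGACG and C/EBP elements were added to the search after the lists had been seen.

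The site at the gene ran from 167514087 to 167514486 and was listed for STAT3α at 30 min. The STAT3β list at 30 min did not hold it, and neither did the 0 and 180 min lists of either spliceform. It overlapped the given range of Cebpb, at its start. The nearest STAT3β site at 30 min began 24.6 kb further on. It was the only site of the window that was listed for STAT3α alone, 1 of 11 (9.09%), where 27.1% of all 30 min sites were listed for STAT3α alone.

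The 3 sites listed for STAT3β alone were spread over the window, and none was listed at another time. One ran from 167539123 to 167539522, 23.1 kb downstream of the gene. It was the only site between the gene and the downstream cluster. Another ran from 167659023 to 167659422, inside the cluster and 143 kb downstream of the gene. The remaining one ran from 167692268 to 167692667, 176 kb downstream of the gene and 31.8 kb beyond the last site of the cluster. STAT3β-only sites were thus 27.3% of the window's sites and 30.2% of all 30 min sites.

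**Figure D1:**
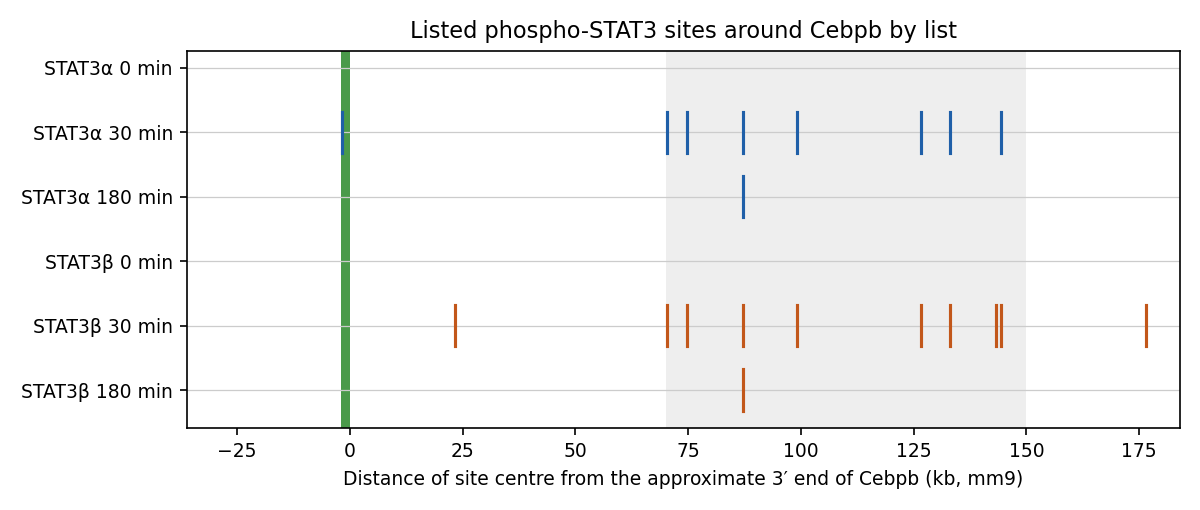
Sites of the Cebpb window in each of the 6 lists, by the distance of the site's centre from the approximate 3′ end of the gene (kb, mm9). Each bar is 1 listed site, blue for STAT3α and orange for STAT3β. The green band is the approximate gene and the grey band is the stretch from 70 to 150 kb downstream, where the 30 min lists hold 7 STAT3α and 8 STAT3β sites and each 180 min list holds 1.

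The downstream cluster, from 70 to 150 kb beyond the gene, held 8 sites. Of these, 7 were in both 30 min lists with identical start and end, and 1 was in the STAT3β list alone. Overlapping peaks of these lists had identical start and end, so the exact match is not particular to the cluster. Whether the peak positions of each list were set from its own reads alone was not tested. A site in both 30 min lists is therefore not shown to have been called independently for each spliceform. The same limit applies to every share of sites in both lists given here. The first pair ran from 167586158 to 167586557 and from 167590587 to 167590986, at 70.2 and 74.6 kb downstream, with 4.03 kb between them. The first site of the pair lay 70158 bp beyond the approximate end of the gene, just past the 70 kb limit. Its place in the cluster, and so the counts of 8 and 7, depend on that approximate end. The third site, at 167602937 to 167603336, lay 86.9 kb downstream. The fourth, at 167614932 to 167615331, lay 98.9 kb downstream. These first 4 sites of the cluster were all listed for both spliceforms at 30 min.

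A gap of 27.2 kb, the widest inside the cluster, separated them from the other 4. The fifth and sixth sites ran from 167642498 to 167642897 and from 167648822 to 167649221, with 5.92 kb between them, and both spliceform lists held them. The last pair lay closest together. The STAT3β-only site at 167659023 was followed after 661 bp by a site at 167660084 to 167660483 that both lists held. This was the shortest gap in the window. Every one of the 11 sites was 400 bp wide.

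At 30 min the window held 8 STAT3α sites (0.215% of that list) and 10 STAT3β sites (0.257%). Of the 11 sites, 7 (63.6%) were in both lists, where 42.7% of all 5338 sites of either 30 min list were in both. On chromosome 2 as a whole, 222 of 489 sites (45.4%) were in both. In the downstream cluster the share was 7 of 8 (87.5%). Both limits of the cluster were set with these lists in view.

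**Figure D2:**
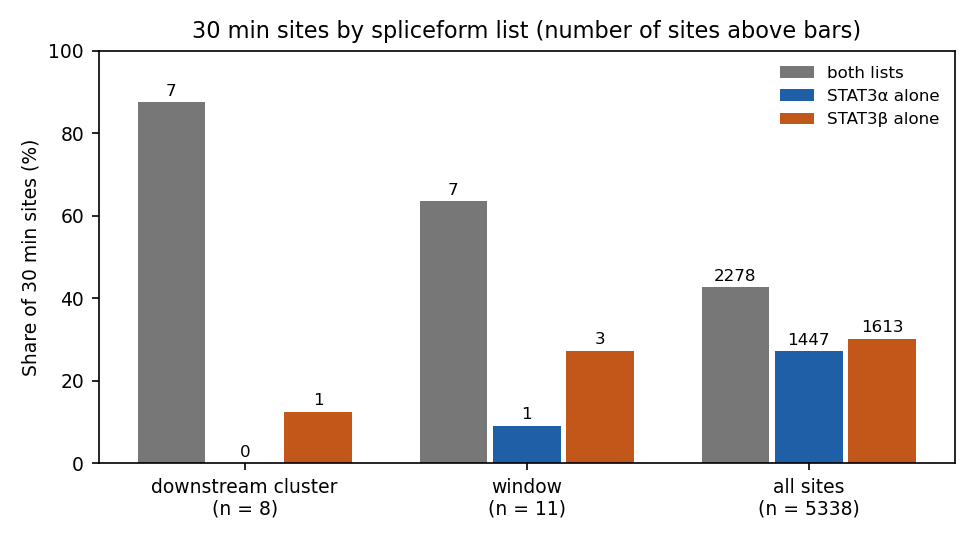
Share of 30 min sites (%) that were in both spliceform lists (grey), in the STAT3α list alone (blue) or in the STAT3β list alone (orange), for the downstream cluster, the whole Cebpb window and all sites. Numbers above the bars are sites, and n is the number of sites in each set. The cluster has 7 of 8 sites in both lists and no STAT3α-only site.

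The single-list sites were compared with their nearest site of the other spliceform. Measured between centres, the STAT3α site at the gene and the STAT3β site at 167539123 lay 25 kb apart, and each was the other's nearest. Over all 1447 STAT3α-only sites the median distance was 78 kb (quartiles 19.4 and 230 kb). The STAT3β-only sites at 167659023 and 167692268 lay 1.06 and 32.2 kb from a STAT3α site. Over all 1613 STAT3β-only sites the median was 110 kb (quartiles 28.4 and 302 kb), and 5.83% lay within 2 kb. The single-list sites of the window were closer to the other spliceform's sites than the median site of their class. Short distances follow from the selection of a window with many peaks in both lists. The 25 kb of the STAT3α-only site and the 32.2 kb of the STAT3β-only site at 167692268 lay between the quartiles of their classes.

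Before oncostatin M no peak was listed in the window for either spliceform. The 0 min lists held only 9 (STAT3α) and 12 (STAT3β) peaks over the whole genome. Nearly every stretch of this length therefore holds 0, and the count is not particular to the window. Beyond 100 Mb the 0 min lists give a position only to the nearest Mb. The STAT3α list held 1 such rounded peak on chromosome 2, whose possible range does not reach the window, and the STAT3β list held 0 on that chromosome. The count of 0 therefore does not rest on the rounding.

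At 180 min 1 site was still listed, the one at 167602937 to 167603336. It was in both 180 min lists and thus in 4 of the 6 lists, every one of them after cytokine. The other 10 sites, the one at the gene included, were in neither 180 min list. The retained site was 1 of 8 STAT3α sites of 30 min, where 0.94% of all STAT3α 30 min sites were listed again at 180 min. It was 1 of 10 STAT3β sites of 30 min, where 3.03% of all STAT3β sites were listed again. Of the 7 sites in both 30 min lists it was the only one in both 180 min lists, and over all 2278 such sites 27 (1.19%) were. A single site supports no statement on the rate of retention at the window.

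The retained site sat in the middle of the first 4 sites of the cluster, 11.9 kb after the second and 11.6 kb before the fourth. Of the 27 sites in both 30 min lists and both 180 min lists, 5 (18.5%) had at least 2 other 30 min sites within 15 kb. The retained site was among these 5. Of all 2278 sites in both 30 min lists, 8.69% had as many neighbours at that distance. At least 1 neighbour within 15 kb was found for 11 of the 27 (40.7%) and for 30.8% of the 2278. Most of the 27 sites therefore did not have another 30 min site within 15 kb.

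Neighbouring sites of the window were separated by a median of 11.8 kb (10 gaps, from 0.661 to 46.6 kb). Over all neighbouring 30 min sites on the same chromosome the median gap was 122 kb. Gaps of up to 15 kb were 6 of 10 in the window and 16.6% of 5318 in all. All 6 of them lay in the downstream cluster, which has 7 gaps. The widest gap, 46.6 kb, lay between the STAT3β-only site at 167539123 and the start of the cluster.

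**Figure D3:**
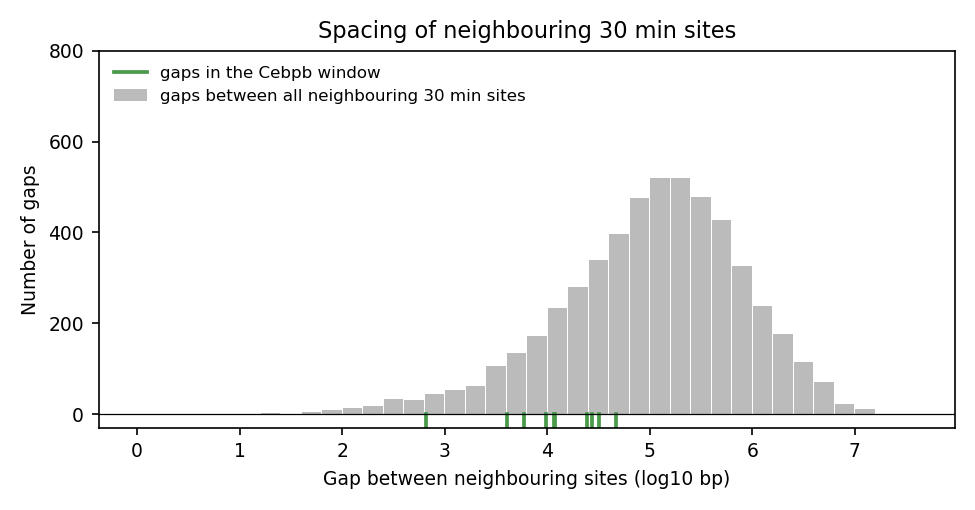
Gaps between neighbouring 30 min sites on a log10 scale (bp). Grey bars count the gaps between all neighbouring sites, and green marks below the axis are the 10 gaps of the Cebpb window. The window's gaps, from 0.661 to 46.6 kb, all lie below the median of all gaps, 122 kb.

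The density of the window was set beside that of the whole genome in 11938 tiles of 220 kb. A site was present in 3029 tiles (25.4%), with a median of 1 site in those. At least 11 sites were found in 4 tiles (0.0335%), and the highest number was 13. With all tiles shifted by 110 kb, 1 tile had at least 11. Tiles have fixed limits while the window was laid around its sites, so the comparison favours the window. The fixed limits divided this stretch between neighbouring tiles with 7 and 8 sites, which include sites outside the window.

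**Figure D4:**
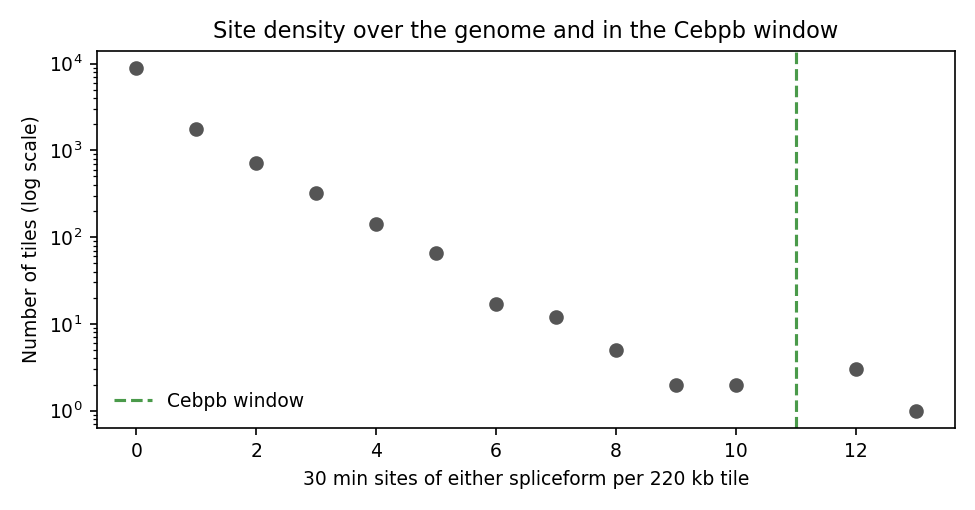
Number of 220 kb tiles (log scale) by the number of 30 min sites of either spliceform that they hold. Each point is a count of tiles, and counts of 0 are left out. The dashed line marks the 11 sites of the Cebpb window, and 4 tiles hold more.

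The sites on either side of the window lay further from its members than the widest gap inside it, 46.6 kb. Both distances were below 122 kb, the median gap of all neighbouring 30 min sites. The last site before the window, at 167420061 to 167420460, ended 59.5 kb outside it and 93.6 kb before the site at the gene. The first site after it, at 167750606 to 167751005, began 50.6 kb outside and 57.9 kb after the last member. Both were in both 30 min lists and in no other. A window extended by 100 kb at each end held 17 sites, 12 of them in both 30 min lists. Inside the limits, the first member lay 34.1 kb and the last 7.33 kb from the edge. When sites were joined at gaps of up to 50 kb, the run that formed held exactly these 11 sites over 179 kb. The 50 kb limit was chosen after the data had been seen. It lies between the widest gap inside the window, 46.6 kb, and the 57.9 kb to the next site. The match with the window was therefore fixed by the limit and does not support the window's bounds. Runs at this limit numbered 3613, and 6 of them (0.166%) had 11 or more sites. The 5 others had 11 to 14 sites over 72.2 to 190 kb, with 33.3 to 66.7% of their sites in both 30 min lists. A site in both 180 min lists was present in 1 of these 5.

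With gaps of up to 25 kb the cluster was divided into 2 runs of 4 sites. The first, from 167586158 to 167615331, held the retained site and was in both lists throughout. Runs of at least 4 sites were 76 of 4140 (1.84%). By the counts in the 6 lists, the run most like it was on the same chromosome, at 164258134 to 164280744. It was the only other run with the same counts, 4 sites in each 30 min list and 1 in each 180 min list. Runs at equal distances were taken in genome order, and further runs tied with the next 2 named were not counted. Named next, each at a Euclidean distance of 1 by the 6 counts, were a run of 5 sites at 108662021 to 108710108 on chromosome 8 and a run of 4 sites at 86385002 to 86438175 on chromosome 11. Each of these held 4 STAT3α and 4 STAT3β sites at 30 min, 1 STAT3β site at 180 min and 0 STAT3α sites at that time. In the run on chromosome 11 all 4 were in both 30 min lists. In the run on chromosome 8, 3 sites were in both, 1 was listed for STAT3α alone and 1 for STAT3β alone.

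In the order of genes in the RefSeq table, which belongs to GRCm38.p6, Cebpb has Tmem189 as its nearest protein-coding neighbour before it and Ptpn1, the gene of a tyrosine phosphatase that acts on receptors and JAK kinases, after it. Between Cebpb and Ptpn1 the table lists 13 genes that are not protein-coding, beginning with A530013C23Rik, a long non-coding RNA gene. This order carries no mm9 positions. The sites of the cluster were therefore not assigned to any of these genes, and their distance from Cebpb does not show which gene they act on.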

How the data were processed

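Peaks were analysed as deposited: each list, per the labels a file of enriched peaks from merged reads, gives chromosome, start, end and name. Build mm9 and the tools MACS2 2.1.1.20160309, HOMER 4.9, STAR 2.5.0a, Trim Galore 0.4.2 and bedtools are listed, without their roles, in the submitters' processing notes. Not given in the sources used here are the peak threshold and whether the 2 inputs entered peak calling. Groups came from sample titles. Peaks overlapping by 1 bp or more were 1 site, and positions count from 1. A rounded 0 min position was taken as the range it can stand for. Sites of the window are all named. Outside it, the nearest site on each side and the 3 most similar runs of sites, in genome order where tied, are named. Members, lists and comparisons were chosen with earlier results of these data known. No test was run, since the rule used the lists and each group has 1. Sequences were not read for the sites, as no mm9 genome was used here. Counting functions were tested on simulated data. Calculations used Python 3.11.15, and plots matplotlib 3.10.9.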

Additional observations from a re-analysis of the deposited data

How the results depend on the processing

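Of 20 alternative values for 7 counts, 14 stayed within 1.5 times the reported one. Some of the 14 could not have moved that far. Overlapping peaks had identical start and end, so counting sites by identical ends repeated the reported setting. The counts by distance between centres covered only the window's 8 STAT3α sites, so 7 could rise to 8 at most. A window wider by 100 kb at each end held 17 sites in place of 11, and 12 in place of 7 in both 30 min lists. Joining sites at gaps of up to 25 kb or 10 kb divided the downstream cluster, and its longest run held 4 sites in place of 8 under either limit. With tiles shifted by 110 kb, 1 tile in place of 4 had at least 11 sites. The count of 76 runs at gaps of up to 25 kb is on another scale, since it asks for at least 4 sites. The joins at 50 kb were chosen after seeing the data. The 180 min counts of 1 and the 0 min count of 0 did not move under the alternatives tried for them. The narrower window still contained the 180 min site, so it could not lower the 180 min counts. A stricter peak threshold could not be tried without scores. No paired analysis was possible because each group has 1 list and the titles carry no replicate number. Depth is unknown, so sites missing from a list may have been missed.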
